A study of Mus musculus with 11 samples.

Results

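The genes described here carry, read or adjust the thyroid hormone signal: the hormone receptors Thra and Thrb, their retinoid X receptor partners Rxra, Rxrb and Rxrg, the deiodinases Dio2 and Dio3, and the hormone-responsive genes Hr and Klf9. They were chosen by gene symbol for their roles in this pathway, and all 9 were found among the 37991 genes of the deposited table. Of these genes 13342 reached 1 CPM (a read number scaled to the library's total) in 2 or more libraries and were tested, among them 7 of the 9. Rxrg and Dio3 stayed below that level and are described from their values. RNA had been measured in 11 libraries of cultured neural stem cells from the frontal cortex of C57BL/6J mouse embryos at stage E14.5, with no genetic change named in the labels. The 3 NSC libraries came from cells taken on day 0 out of a NeuroCult proliferation medium. The 3 Neuron libraries came from cells kept until day 4 in Neurobasal with 2% B-27 and 2 mM GlutaMAX-1. The 2 Oligodendrocyte libraries had the same additions plus the thyroid hormone T3 at 30 ng/mL for 4 days. The 3 Astrocyte libraries were kept until day 4 in DMEM to which fetal bovine serum (1%), N-2 (1%) and GlutaMAX-1 (2 mM) had been added. The group names stand for the medium a culture received. The comparison of Oligodendrocyte with Neuron is the one whose described media differ by the added T3 alone. B-27 as published contains T3 and serum contains thyroid hormones, so the day 4 media without added T3 are not described as free of the hormone.

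Thyroid hormone enters cells through membrane transporters, and the deiodinases, which are selenoproteins, set how much of it is active: the Dio2 enzyme makes T3 from its precursor T4, and the Dio3 enzyme inactivates both. T3 binds the nuclear receptors encoded by Thra and Thrb, which sit on DNA mostly as pairs with a retinoid X receptor. They hold corepressors without hormone and coactivators with it. In the brain the hormone is best known for driving oligodendrocyte precursors out of the cell cycle and into myelin-forming cells, and Klf9 and Hr are among the genes that respond to it directly.

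Both deiodinases carry selenocysteine in the active centre, encoded by TGA, a codon that otherwise stops translation. These stretches are shown because the RNAs of the 2 enzymes, which act in opposite directions on T3, also had opposite patterns in Oligodendrocyte and Neuron. Each has 15 bases on either side of the codon, in capitals, from GENCODE release M21 (build GRCm38), where it is codon 130 of 266 in Dio2 (chromosome 12, 90729823 to 90729825, minus strand) and codon 170 of 304 in Dio3 (chromosome 12, 110279739 to 110279741, plus strand). That release marks a further selenocysteine TGA in Dio2, codon 263 of 266 (90729424 to 90729426), which is not shown.
Dio2 codon 130: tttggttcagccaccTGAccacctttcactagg
Dio3 codon 170: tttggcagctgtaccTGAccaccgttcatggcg

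The RefSeq promoter table (build GRCm38.p6) held 7 of the 9 genes, Hr and Thra not being among them. The 250 bases before the start of Dio2, Dio3 and Klf9 are shown because these were the genes with a promoter in that table that differed most between the Oligodendrocyte and Neuron libraries. They lie at chr12:90739039-90739288 (minus strand), chr12:110278980-110279229 (plus strand) and chr19:23140976-23141225 (plus strand). Capitals mark matches to AGGTCA (the unit from which thyroid hormone response elements are built), GGGCGG and TGACGTCA on either strand, and TATAAA on the strand of the gene.
Dio2: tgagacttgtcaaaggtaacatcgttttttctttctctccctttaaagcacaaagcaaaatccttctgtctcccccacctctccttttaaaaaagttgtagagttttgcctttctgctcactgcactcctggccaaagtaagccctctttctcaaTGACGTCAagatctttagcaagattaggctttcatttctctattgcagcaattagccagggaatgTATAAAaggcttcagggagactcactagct
Dio3: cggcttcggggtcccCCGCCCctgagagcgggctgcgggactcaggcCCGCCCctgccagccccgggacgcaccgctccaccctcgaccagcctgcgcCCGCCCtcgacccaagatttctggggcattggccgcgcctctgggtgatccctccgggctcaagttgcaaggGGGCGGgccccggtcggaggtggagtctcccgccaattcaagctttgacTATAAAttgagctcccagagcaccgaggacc
Klf9: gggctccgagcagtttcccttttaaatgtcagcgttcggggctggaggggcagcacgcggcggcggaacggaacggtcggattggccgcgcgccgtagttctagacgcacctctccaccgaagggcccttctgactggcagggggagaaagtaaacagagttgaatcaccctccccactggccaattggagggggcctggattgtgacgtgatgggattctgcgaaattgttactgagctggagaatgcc
In windows of 300 bases, from 250 before to 50 after the start, the Dio2 promoter held TGACGTCA (the cyclic AMP response element, which reads the same on both strands) at -95 and TATAAA at -30. TGACGTCA was found in 1.79% of all 32851 promoters of that length and TATAAA in 8.32%. The Dio3 promoter held TATAAA at -31 and 4 matches to GGGCGG (the GC box), which 35.7% of all promoters had. The Klf9 window held none of these motifs. AGGTCA, present in 16.3% of all promoters, was found in 1 promoter each of Thrb, Rxra and Rxrg and in none of Dio2, Dio3, Klf9 and Rxrb. Its direct repeat with any 4 bases between the copies, present in 0.0152% of all promoters, was found in none of the 7 genes. These matches are a description of the letters in the window.

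Estimated depth was 49.3 to 66.2 M (mega) reads per library, at which 1 read was worth 0.0151 to 0.0203 CPM. The values come from whole cultures, in which fewer cells of a type and less RNA per cell cannot be told apart. Marker sums went only partly with the group names. Of 10 neuron markers 9 were matched, and they summed to 243.2 to 346.7 CPM in Neuron against 313.1 to 350.3 in Oligodendrocyte. Elavl3 alone made 78.59 to 97.55 CPM of the sum in Neuron and 164.1 and 192.4 CPM in the Oligodendrocyte libraries. In Oligodendrocyte vs Neuron 7 neuron markers were tested, with 4 lower, 2 higher and 1 not called (median log2 fold change -0.506). Over all genes 43.9% were called higher there and 23.6% lower. Of 10 mature oligodendrocyte markers 9 were matched, and they summed to 2716 to 2898 CPM in Neuron and 2636 to 3022 in Oligodendrocyte, compared with 446.6 to 571.2 in Astrocyte and 73.93 to 82.46 in NSC. The 10 astrocyte markers summed to 9398 to 10240 CPM in Neuron, 14610 to 16150 in Astrocyte, 3703 to 4162 in Oligodendrocyte and 1765 to 1841 in NSC. Gfap alone made 7631 ± 934 CPM of the sum in Astrocyte and 2647 ± 190 CPM in Neuron (n = 3 each, SD). In Astrocyte vs Neuron 3 of the 10 markers were higher, 5 lower and 2 not called. Over all genes 62.2% were called there, 40.3% as higher and 22% as lower. The 8 cell cycle genes were at 2406 to 2498 CPM in NSC and at no more than 97.77 CPM in any day 4 library. The 8 oligodendrocyte precursor markers summed to 1880 to 2020 CPM in NSC, 1684 to 2243 in Neuron, 1359 to 1484 in Oligodendrocyte and 758.2 to 844.4 in Astrocyte. Sums for microglia, endothelial and mesenchymal markers reached no more than 1.32, 7.37 and 42.46 CPM in any library.

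In Oligodendrocyte vs Neuron, the genes of this axis split. Hr, Klf9 and Thrb were higher in Oligodendrocyte, Dio2 and Rxra were lower, and Thra and Rxrb did not pass the test. That is 5 of the 7 tested genes, where limma called 67.5% of all genes tested in this comparison at an adjusted p under 0.05, 43.9% as higher and 23.6% as lower. Of the 7, 3 were called and at least 2-fold (Hr, Klf9 and Dio2), against 12.5% of all genes. For each of the 7 the Oligodendrocyte and Neuron libraries did not overlap, which held for 75.7% of all genes. The median log2 fold change was -0.09 over the 7 and 0.15 over all genes tested. Markers of other cells moved in this comparison too. Of the 10 astrocyte markers 8 were lower in Oligodendrocyte and 1 was higher, and of the 8 oligodendrocyte precursor markers 6 were lower and none was called higher. Of the 9 mature oligodendrocyte markers 4 were higher and 2 lower, with Mog at 9.60 ± 0.247 CPM in Oligodendrocyte (n = 2, SD) and 0.527 ± 0.206 CPM in Neuron (n = 3, SD). The part of these cell markers in the differences above was not tested. Each fold change here is the gap between group means of log2(CPM + 1), a scale on which low values are compressed.

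**Figure D1:**
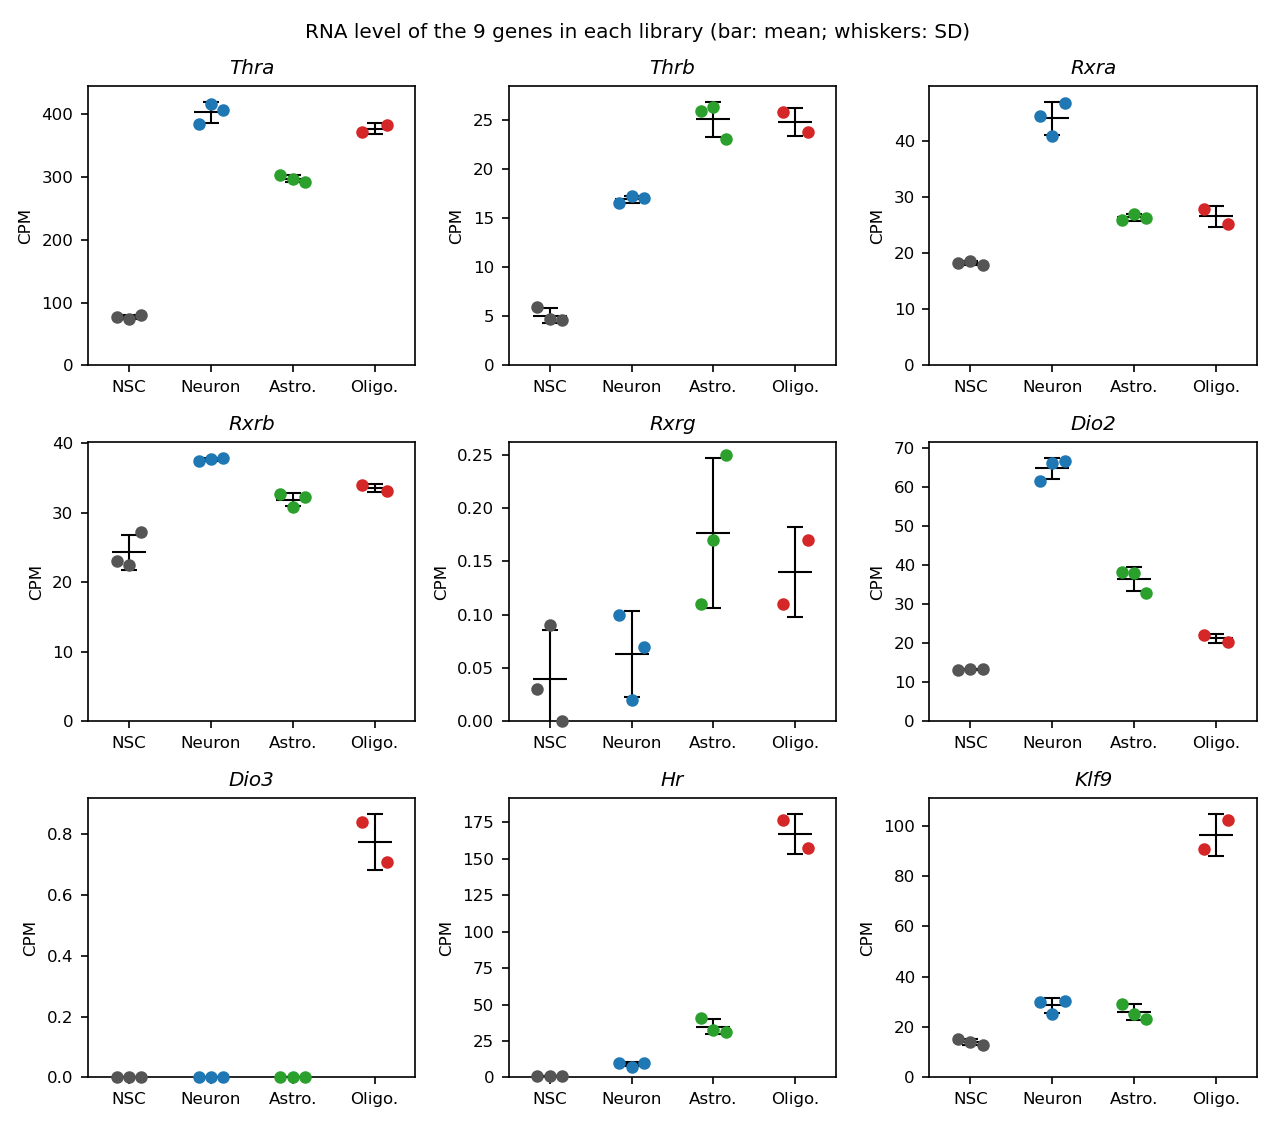
RNA level in CPM (vertical axes, linear, from 0) of each of the 9 genes in the 3 NSC, 3 Neuron, 3 Astrocyte and 2 Oligodendrocyte libraries. Points are libraries, horizontal bars means and whiskers SD (cut at 0 for Rxrg in NSC). Hr, Klf9 and Dio3 are highest in Oligodendrocyte, Dio2 and Rxra in Neuron.

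Among the deiodinases, Dio2 (ENSMUSG00000007682, mm9 chromosome 12, 91962994 to 91976878, minus strand), whose enzyme makes T3, was at 61.5, 66.0 and 66.5 CPM in the Neuron libraries, 38.3, 38.0 and 33.0 in Astrocyte, 22.0 and 20.4 in Oligodendrocyte and 13.1, 13.3 and 13.4 in NSC. No 2 groups overlapped, and every neighbouring pair in this order passed the test. The mean of 21.2 ± 1.16 CPM (n = 2, SD) in Oligodendrocyte was 0.328 times the 64.7 ± 2.72 CPM (n = 3, SD) in Neuron, a log2 fold change of -1.56 (SE 0.079, limma adjusted p 2.14e-09). By size of change Dio2 ranked number 580 of the 13342 genes. The span of Dio2 overlaps that of Gm16738, on the opposite strand, by 238 bases. Gm16738 was at 2.22 ± 0.192 CPM (n = 3, SD) in Neuron and 1.09 ± 0.0354 CPM (n = 2, SD) in Oligodendrocyte. The strand setting of the counting is not given in the sources used here.

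Dio3 (ENSMUSG00000075707, mm9 chromosome 12, 111517278 to 111519307, plus strand), whose enzyme inactivates T3, was listed at 0 in all 9 libraries of the other groups. It was at 0.84 and 0.71 CPM in the Oligodendrocyte libraries, which corresponds to about 54 and 45 reads. With a floor of 3 reads per library, the Oligodendrocyte mean of 0.775 ± 0.0919 CPM (n = 2, SD) was at least 12.7-fold higher than in Neuron, 15.3-fold higher than in Astrocyte and 14.8-fold higher than in NSC. The 8 genes that every cell uses, such as Actb and Tbp, were at 5.75 CPM or more in every library. They lie too far above Dio3 to test whether a gene at its level would be detected. Fitted without the filter on low values, Dio3 passed the test in Oligodendrocyte vs Neuron (limma adjusted p 2.21e-08), as did 41.6% of the 23440 genes in that fit, and its spread there rests on groups of zeros. The neighbouring transcript Dio3os (ENSMUSG00000090962), whose span does not overlap that of Dio3, was also at 0 in those 9 libraries and at 0.12 and 0.09 CPM, about 8 and 6 reads, in Oligodendrocyte. Dio1, the third deiodinase, had 1 read in 1 Oligodendrocyte library and none elsewhere.

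Of the hormone receptors, Thra (ENSMUSG00000058756, mm9 chromosome 11, 98601952 to 98630320, plus strand) was at 371 and 383 CPM in Oligodendrocyte and at 384, 417 and 407 CPM in Neuron. These values lie next to each other, and the log2 fold change of -0.09 (95% interval -0.23 to 0.04, SE 0.063, limma adjusted p 0.202) did not pass the test. Under median-of-ratios scaling, which takes the median over all genes as no change, it was -0.25 and passed (limma adjusted p 0.00501). Astrocyte libraries had less, 303, 297 and 293 CPM, and NSC libraries least, 77.1, 73.6 and 80.3 CPM. Thra encodes a hormone-binding receptor and, by alternative splicing, a form that does not bind T3, and gene-level values do not separate them. The span of Thra overlaps that of the clock gene Nr1d1 on the opposite strand by 1075 bases. Nr1d1 (ENSMUSG00000020889) had 18.1 ± 0.250 CPM in NSC, 25.3 ± 1.94 in Neuron, 28.8 ± 2.75 in Astrocyte (n = 3 each, SD) and 36.5 ± 1.20 in Oligodendrocyte (n = 2, SD), so its order differed from that of Thra.

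Thrb (ENSMUSG00000021779, mm9 chromosome 14, 18493474 to 18870602), the second receptor gene, was at 25.8 and 23.8 CPM in Oligodendrocyte and 16.5, 17.2 and 17.1 CPM in Neuron, which do not overlap. It was higher in Oligodendrocyte by 0.52 on the log2 scale (SE 0.0999, limma adjusted p 0.000427). The Astrocyte libraries, at 25.9, 26.3 and 23.1 CPM, overlapped those of Oligodendrocyte, and their log2 difference of -0.02 had a 95% interval of -0.23 to 0.20 (limma adjusted p 0.91). NSC had 5.93, 4.69 and 4.62 CPM. Per kilobase of annotated exon (GENCODE M21, an approximation since the files use another annotation), the level of Thra was 38.1 times that of Thrb in Neuron, 24.4 times in Oligodendrocyte, 19.0 times in Astrocyte and 24.3 times in NSC. Thra RNA was thus the more abundant of the receptor pair in every group on this scale.

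The retinoid X receptors are the partners with which the hormone receptors bind DNA. Rxra (ENSMUSG00000015846, mm9 chromosome 2, 27531960 to 27618477) was at 44.5, 40.8 and 46.7 CPM in Neuron, above the 27.9 and 25.3 CPM in Oligodendrocyte and the 25.92, 27.04 and 26.20 CPM in Astrocyte. Against Neuron it was lower in Oligodendrocyte by a log2 fold change of -0.71 (SE 0.0744, limma adjusted p 2.21e-06). Oligodendrocyte and Astrocyte overlapped, with a log2 difference of 0.01 (95% interval -0.15 to 0.17, limma adjusted p 0.937), whose sign changed with the scaling. NSC libraries had 18.2, 18.5 and 17.9 CPM, the lowest of the 4 groups.

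Rxrb (ENSMUSG00000039656, mm9 chromosome 17, 34168757 to 34175338) varied least of the 7 tested genes, between 30.8 and 37.9 CPM in all day 4 libraries and between 22.6 and 27.3 CPM in NSC. Its difference in Oligodendrocyte vs Neuron, -0.16 on the log2 scale (95% interval -0.33 to 0.01, limma adjusted p 0.0853), did not pass, but it was -0.31 and passed under median-of-ratios scaling (limma adjusted p 0.00233) and -0.36 and passed under quantile normalization (limma adjusted p 0.000687). Per kilobase of exon, Rxrb was at 1.18 times the level of Rxra in Neuron and 1.66 to 1.84 times in the other groups. Rxrg (ENSMUSG00000015843, mm9 chromosome 1, 169528515 to 169569754) was low everywhere, at 0.11 and 0.17 CPM in Oligodendrocyte, 0.11, 0.17 and 0.25 in Astrocyte, 0.10, 0.02 and 0.07 in Neuron and 0.03, 0.09 and 0 in NSC. The highest of these values corresponds to about 15 reads. The Astrocyte libraries were above those of NSC and of Neuron without overlap. In the fit without the filter Rxrg passed in Astrocyte vs NSC (limma adjusted p 0.00971, with 55.6% of all genes passing) and in Astrocyte vs Neuron (limma adjusted p 0.0389, with 37.6% passing).

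Hr, which encodes a corepressor of nuclear receptors, differed between all 4 groups. Hr (ENSMUSG00000022096, mm9 chromosome 14, 70952019 to 70973355) was at 177 and 157 CPM in Oligodendrocyte, 40.6, 32.7 and 30.8 in Astrocyte, 9.86, 7.47 and 9.72 in Neuron and 0.96, 0.80 and 0.96 in NSC. The 4 groups were fully apart, and each step in this order passed the test. The Oligodendrocyte mean of 167 ± 13.7 CPM (n = 2, SD) was 18.5 times the Neuron mean of 9.02 ± 1.34 CPM (n = 3, SD), with a log2 fold change of 4.08 (SE 0.129, limma adjusted p 4.4e-11), the 18th largest change of all 13342 genes. The same gene was also higher in Astrocyte than in Neuron, by 1.83 on the log2 scale (SE 0.116, limma adjusted p 2.14e-08). T3 had been added to neither of these media.

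Klf9, a transcription factor of the Krüppel-like family, was higher in Oligodendrocyte than in each other group. Klf9 (ENSMUSG00000033863, mm9 chromosome 19, 23215716 to 23241401) was at 90.5 and 102 CPM there, at 30.1, 25.3 and 30.4 in Neuron, 29.3, 25.1 and 23.3 in Astrocyte and 15.2, 14.2 and 12.9 in NSC. Both Oligodendrocyte libraries lie far above all others, while Neuron and Astrocyte overlap. The mean of 96.4 ± 8.29 CPM (n = 2, SD) was 3.37 times that in Neuron, with a log2 fold change of 1.72 (SE 0.110, limma adjusted p 2.03e-08), the 450th largest change. Astrocyte vs Neuron gave a log2 fold change of -0.14 (95% interval -0.35 to 0.07, limma adjusted p 0.231) for Klf9, which passed under median-of-ratios scaling at -0.25 (limma adjusted p 0.0323), under quantile normalization at -0.29 (limma adjusted p 0.0128) and without the second Neuron library at -0.22 (limma adjusted p 0.0402).

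**Figure D2:**
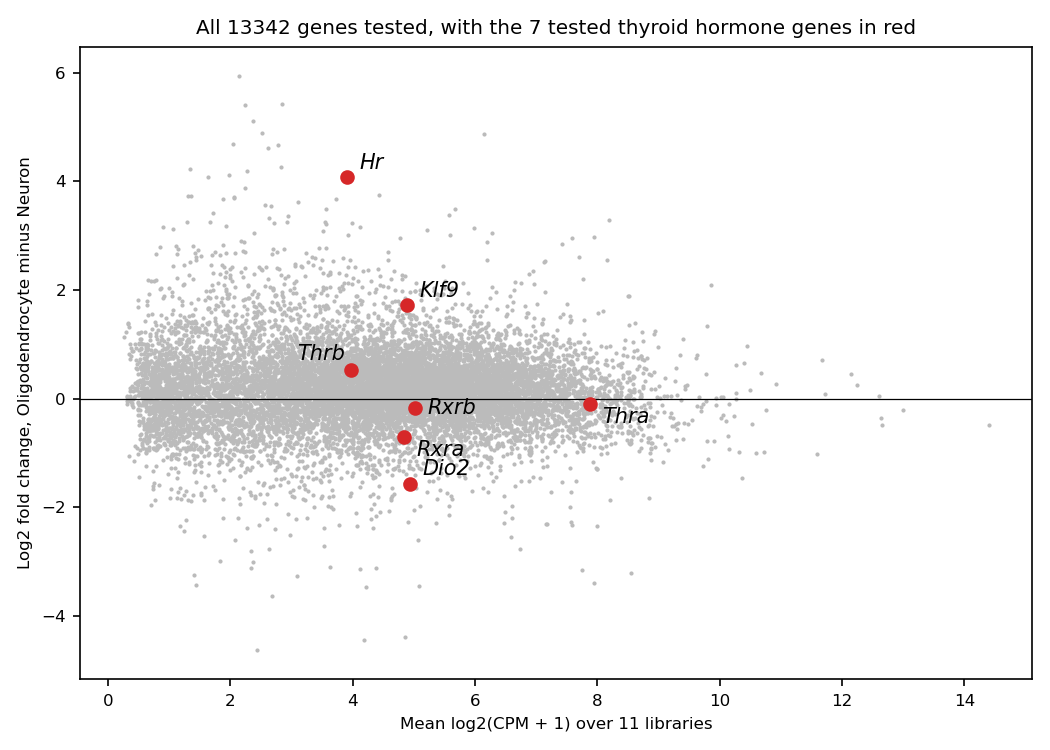
Log2 fold change in Oligodendrocyte minus Neuron (vertical axis) against mean log2(CPM + 1) over the 11 libraries (horizontal axis) for all 13342 genes tested, each a grey point, with the 7 tested genes of the thyroid hormone axis in red. Hr at 4.08 lies near the upper edge of the cloud, Klf9 at 1.72 above and Dio2 at -1.56 below its dense part, and the receptors near 0.

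Oligodendrocyte vs Astrocyte differ in base medium, supplement and serum as well as in the T3. Here 4 of the 7 genes passed the test, Hr, Klf9 and Thra higher and Dio2 lower, where 52.2% of all genes passed, 28.7% higher and 23.5% lower. The log2 fold changes were 2.24 for Hr (SE 0.129, limma adjusted p 1.58e-08), 1.86 for Klf9 (SE 0.110, limma adjusted p 1.98e-08), 0.34 for Thra (SE 0.063, limma adjusted p 0.000523) and -0.75 for Dio2 (SE 0.0787, limma adjusted p 3.86e-06). Hr and Klf9 were thus higher in Oligodendrocyte than in both other day 4 groups, and Dio2 lower than in both. Rxrb differed by 0.07 (95% interval -0.10 to 0.24, limma adjusted p 0.471), which did not pass. The median of all genes here was 0.04.

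In Astrocyte vs Neuron, in which neither medium had added T3, 6 of the 7 passed, where 62.2% of all genes passed, 40.3% higher and 22% lower. Hr and Thrb were higher in Astrocyte, Thrb by 0.54 (SE 0.0894, limma adjusted p 0.00015). Dio2 (-0.81), Rxra (-0.72), Thra (-0.44) and Rxrb (-0.23) were lower, with limma adjusted p from 3.87e-07 for Dio2 to 0.0112 for Rxrb, while the median of all genes was 0.10. Of the 9 mature oligodendrocyte markers 8 were lower in Astrocyte than in Neuron, as were all 8 oligodendrocyte precursor markers, while the astrocyte markers went both ways, and their part in these differences was not tested.

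All 7 tested genes rose from NSC in each of the 3 day 4 groups. In Neuron vs NSC 83.1% of all genes tested passed and 43.5% passed as higher. In Astrocyte vs NSC 83.6% passed and 48% passed as higher, and in Oligodendrocyte vs NSC 80.2% passed and 48.1% passed as higher. These comparisons share the NSC libraries, and day and medium changed together in them, so the effects of either cannot be told apart. The cell cycle genes fell in all 3 as well, by the sums given above, and their part in these rises was not tested.

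The sizes of the rises are given side by side. Hr rose from 0.907 ± 0.0924 CPM (n = 3, SD) in NSC by a log2 fold change of 6.46 in Oligodendrocyte (SE 0.129, limma adjusted p 9.72e-14), 4.22 in Astrocyte and 2.39 in Neuron. Klf9 rose by 2.69 in Oligodendrocyte, 0.83 in Astrocyte and 0.97 in Neuron. Dio2 had the reverse of the order of Hr, with 0.64 in Oligodendrocyte, 1.39 in Astrocyte and 2.20 in Neuron. Thra rose by 2.28, 1.94 and 2.37 in the same order of groups, and Thrb by 2.09, 2.11 and 1.57. Of the retinoid X receptors, Rxra rose by 0.52, 0.51 and 1.23 and Rxrb by 0.46, 0.38 and 0.62. All 21 of these changes passed the test, the least certain being that of Rxrb in Astrocyte vs NSC (limma adjusted p 0.000196).

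**Figure D3:**
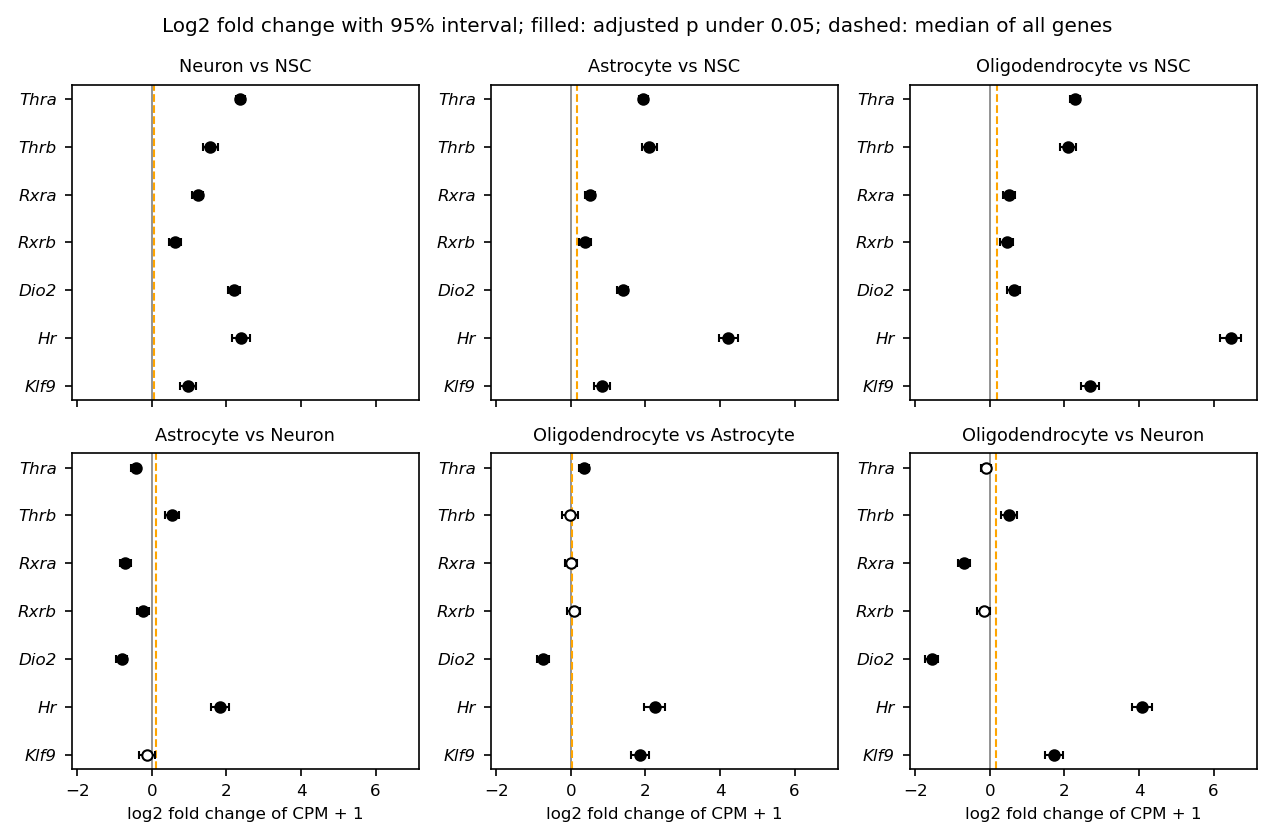
Log2 fold change of CPM + 1 (horizontal axes) of the 7 tested genes in each of the 6 comparisons, with 95% intervals as whiskers. Filled points passed the test (adjusted p under 0.05), open points did not, and the dashed line is the median of all genes tested. All points are filled in the 3 comparisons with NSC, with Hr farthest right at 6.46 in Oligodendrocyte vs NSC.

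Which genes followed the same pattern was described by the Pearson correlation of log2(CPM + 1) with each of 10306 genes that reached a group mean of 10 CPM, over the 11 libraries. The libraries of a group share their medium, so these values describe group patterns. The genes most like Hr were Osgin1 (r = 0.998), at 0.0933 CPM in NSC, 2.70 in Neuron, 7.17 in Astrocyte and 23.4 in Oligodendrocyte, and Kif19a (r = 0.998). For Klf9 they were Flrt1 (r = 0.994), at 1.25, 5.20, 4.19 and 32.0 CPM in the same order, and Crtac1 (r = 0.990). For Dio2 they were Papss2 (r = 0.997), at 0.147, 22.5, 6.62 and 1.91 CPM, and Crot (r = 0.995). Thra was most like Vmac (r = 0.999) and Fam63a (r = 0.998), and Thrb most like Tuba4a (r = 0.996) and Ubxn2b (r = 0.995). Rxra was most like 2410066E13Rik (r = 0.991) and 3110035E14Rik (r = 0.991), and Rxrb most like Rundc3a (r = 0.986) and Fam134c (r = 0.980).

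The tested genes whose products carry the hormone were higher in Oligodendrocyte than in Neuron. Over all genes tested in Oligodendrocyte vs Neuron 67.5% passed, 43.9% as higher, and the median log2 fold change was 0.15. Of 8 listed transporters and binding proteins 5 were tested, and all 5 passed as higher there, with a median of 1.16. They included Slco1a4, an organic anion carrier that takes up thyroid hormone, which was at 2.58 ± 0.332 CPM (n = 2, SD) in Oligodendrocyte and 0.207 ± 0.0153 (n = 3, SD) in Neuron (log2 fold change 1.57, limma adjusted p 7.55e-07). They also included the amino acid exchangers Slc7a8 (1.56, limma adjusted p 3.16e-08) and Slc7a5 (1.10, limma adjusted p 1.33e-07), which also carry iodothyronines, and their common heavy chain Slc3a2 (1.16, limma adjusted p 2.18e-08). In Oligodendrocyte vs Astrocyte 4 of the 5 were higher and 1, Slco1a4, was lower, where 28.7% of all genes passed as higher and 23.5% as lower. Slco1a4 was at 3.89 ± 1.13 CPM in Astrocyte (n = 3, SD). It was higher there than in Neuron too, by 1.99 on the log2 scale (limma adjusted p 3.17e-08). In Astrocyte vs Neuron 3 of the 5 were higher and 2 were not called, where 40.3% of all genes passed as higher. The 3 untested genes were all under 1 CPM. The transporter gene Slco1c1 was at 0.065 ± 0.0212 CPM in Oligodendrocyte (n = 2, SD) and 0.450 ± 0.154 in Neuron (n = 3, SD). Ttr, which encodes a carrier of thyroid hormone in blood and cerebrospinal fluid, was at 0.015 ± 0.0212 and 0.103 ± 0.0404 CPM. Both were without overlap. With 1 read worth 0.0151 to 0.0203 CPM, the Ttr values and the Oligodendrocyte values of Slco1c1 rest on few reads. The libraries overlapped for Crym, which encodes a T3-binding protein of the cytosol.

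Other genes listed as responsive to thyroid hormone moved in both directions. Of 18 listed, 14 were tested in Oligodendrocyte vs Neuron, of which 8 were higher, 2 lower and 4 not called, with a median of 0.72. Over all genes 43.9% were higher and 23.6% lower, so a share of 10 called of 14 is near the 67.5% of all genes. In Astrocyte vs Neuron, where T3 had been added to neither medium, 12 of the 14 were higher and 0 lower (median 0.69). There 40.3% of all genes were higher and 22% lower. Oligodendrocyte vs Astrocyte gave 4 higher and 4 lower (median 0.03), where 28.7% of all genes were higher and 23.5% lower. Aldh1a1, an enzyme of retinoic acid synthesis, was at 33.0 ± 5.07 CPM (n = 2, SD) in Oligodendrocyte and 0.313 ± 0.0751 (n = 3, SD) in Neuron (log2 fold change 4.69, SE 0.154, limma adjusted p 5.96e-11). Gbp3 (2.55, limma adjusted p 9.26e-11) and the laminin receptor subunit Itga7 (1.93, limma adjusted p 7.48e-10) were also higher. Thrsp, a lipogenic gene that T3 raises in liver, went the other way, at 1.15 ± 0.120 CPM (n = 2, SD) in Oligodendrocyte and 45.8 ± 7.32 CPM (n = 3, SD) in Neuron (-4.44, SE 0.126, limma adjusted p 1.89e-11). Astrocyte had 8.10 ± 2.01 CPM of Aldh1a1, 30.9 ± 2.25 of Gbp3, 103 ± 2.13 of Itga7 and 79.0 ± 3.72 of Thrsp (n = 3 each, SD). Gbp3 and Itga7 were at 32.0 ± 1.95 and 58.8 ± 6.72 CPM in Oligodendrocyte (n = 2 each, SD).

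Most coregulators that the receptors bind did not pass the test. Of 11 tested in Oligodendrocyte vs Neuron 3 were higher and 8 were not called, with a median of -0.0066, where 67.5% of all genes were called and the median was 0.15. The coactivator Ncoa1 was higher by 0.58 (limma adjusted p 0.00162), the Mediator subunit Med1 by 0.46 (limma adjusted p 0.00945) and the corepressor deacetylase Hdac3 by 0.19 (limma adjusted p 0.032).

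Of 11 other nuclear receptors that pair with RXR, 10 were tested, with 6 higher, 2 lower and 2 not called in the same comparison (median 0.38), where 67.5% of all genes were called. Ppard, a lipid-sensing receptor, was higher by 1.01 (limma adjusted p 1.23e-06), and the oxysterol receptor gene Nr1h3 by 0.60 (limma adjusted p 0.00132). The orphan receptor gene Nr4a1 (-1.47, limma adjusted p 1e-07) and the retinoic acid receptor gene Rara (-0.75, limma adjusted p 0.000105) were lower.

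The other members of the KLF family went in both directions. Of 13 listed 12 were tested, with 3 higher, 4 lower and 5 not called (median -0.13), again beside 67.5% of all genes called. Klf11 was at 8.12 ± 0.771 CPM (n = 2, SD) in Oligodendrocyte and 38.4 ± 2.79 CPM (n = 3, SD) in Neuron (log2 fold change -2.11, limma adjusted p 2.99e-09), and Klf15 was lower by a log2 fold change of -1.12 (limma adjusted p 3.5e-07). Klf10 was higher by 0.82 (limma adjusted p 2.11e-06). Called and at least 2-fold were 2 of the 12, both lower, beside 12.5% of all genes in either direction.

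**Figure D4:**
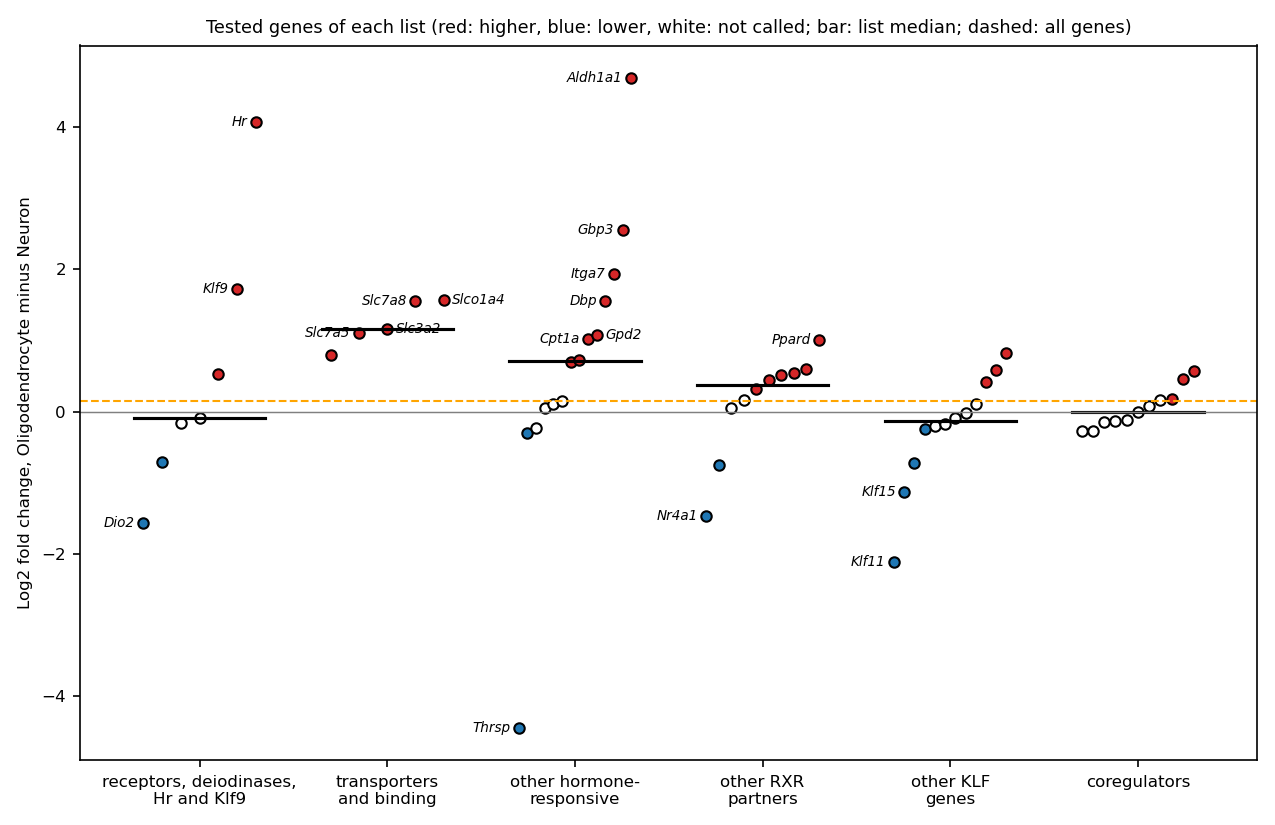
Log2 fold change in Oligodendrocyte minus Neuron (vertical axis) of the tested genes in each list (horizontal axis, sorted within a list). Red points were called higher, blue lower, white not called, black bars are list medians and the dashed line is the median of all genes. The 5 transporter genes are all red, and the other lists hold red and white points, with blue ones in all but the coregulators.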

How the data were processed

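The deposited values are CPM per gene and library, per the file headers, which the authors rounded to 2 decimals, on mouse build mm9 (NCBIM37). Libraries were made with a stranded mRNA kit, per the labels' protocols. TopHat2 2.0.8, HTSeq 0.6.1 and edgeR 3.2.4 are named in the submitters' processing notes. The listed genes sum to 74.95% to 80.25% of the CPM total. Depth was estimated from the spacing of low values, and no count test was run. The labels number replicates and the series describes them as biological, but they do not say which came from separate cultures, so p-values measure the spread between these libraries.

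Genes that reached 1 CPM in 2 or more libraries were kept. Their log2(CPM + 1) values entered a limma 3.58.1 model (R 4.3.3, eBayes with a trend, 7 residual degrees of freedom) with all 11 libraries and 4 group means, and tests were two-sided, with Benjamini-Hochberg adjustment over all genes in each comparison. The procedure was tested on simulated data. The genes and lists were chosen with earlier results of these data known. All 9 genes are reported. From each list, up to 4 called genes with at least 1 CPM in a group and the largest changes in Oligodendrocyte vs Neuron, and up to 2 in each other comparison, may be named. Overlapping neighbours and the 2 genes most alike in pattern may be named too. 2 listed genes are not reported here. Other pseudocounts, filters, scalings, fits and left-out libraries were tried.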

Additional observations from a re-analysis of the deposited data

Results flagged for a closer look

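Of the genes described, 6 were called in opposite directions against NSC in different media, with the difference between the media tested directly (limma, adjusted over all genes). None of the 7 tested receptor, deiodinase and target genes was among them. How many of all genes had such opposite calls was not counted, and 80.2% to 83.6% of all genes passed against NSC. Thrsp fell in Oligodendrocyte (-1.64) but rose in Neuron (2.80) and Astrocyte (3.58), which makes differences of -4.44 (limma adjusted p 1.89e-11) and -5.22 (limma adjusted p 1.64e-11). Gbp3 fell in Neuron (-1.14) and rose in Oligodendrocyte and Astrocyte, with differences of 2.55 (limma adjusted p 9.26e-11) and 2.50 (limma adjusted p 4.96e-11). Itga7 also fell in Neuron (-1.15) and rose in the other media, with differences of 1.93 for Oligodendrocyte (limma adjusted p 7.48e-10) and 2.73 for Astrocyte (limma adjusted p 3.05e-11).

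Slc3a2 fell slightly in Neuron (-0.22) and rose in Oligodendrocyte and Astrocyte, with differences of 1.16 (limma adjusted p 2.18e-08) and 0.49 (limma adjusted p 2.61e-05). Nr4a1 fell in Oligodendrocyte (-1.07) and rose in Neuron (0.40), a difference of -1.47 (limma adjusted p 1e-07). Rara fell in Oligodendrocyte (-0.57) and rose in Astrocyte (0.37), a difference of -0.94 (limma adjusted p 2.46e-05). These comparisons share the NSC libraries.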

How the results depend on the processing

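No call among the 7 tested genes was lost in any of the 6 comparisons under a pseudocount of 0.1 or 5, no filter, a filter at 5 CPM, median-of-ratios scaling, quantile normalization, no trend, a fit of only the groups compared, a replicate block, or with a library left out. With 1 Oligodendrocyte library left, that library is assumed to vary like the other groups. Changes of sign were limited to differences near 0 in Oligodendrocyte vs Astrocyte. Rxra became -0.033 with median-of-ratios scaling and -0.040 with quantile normalization, and ranged from -0.059 to 0.075 with a library left out (-0.0043 without the first Astrocyte library). Thrb ranged from -0.073 to 0.040 with a library left out, and was above 0 without the first Astrocyte (0.0074), second Astrocyte (0.019) or second Oligodendrocyte library (0.040). Under median-of-ratios scaling the median of all genes moved from 0.15 to no more than 0.016 in Oligodendrocyte vs Neuron. Thra and Rxrb then passed there too, with the values given above. Replicate numbers were not used to pair the libraries in the main fit. The deviations of same-numbered libraries correlated between -0.505 and 0.415, over 0.1 in 6 of 15 pairs. Those of differently numbered libraries correlated between -0.536 and 0.541, over 0.1 in 7 of 30 pairs. Of the 11 libraries 6 correlated best with their own number. With so few libraries in a group, these values do not settle whether the numbers pair the libraries. With the replicate block the genes of the axis that passed were the same as without it in each of the 6 comparisons. Depth limits Rxrg, Dio1, Dio3os, Ttr and Crym, which rest on few reads, as does Slco1c1 in Oligodendrocyte.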

Other observations

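The lists also moved against NSC, in comparisons that share the NSC libraries. Of the 14 other hormone-responsive genes tested, 10 rose and 4 fell in Astrocyte vs NSC, 8 rose and 6 fell in Oligodendrocyte vs NSC, and 4 rose, 7 fell and 3 did not pass in Neuron vs NSC. Over all genes 83.6%, 80.2% and 83.1% passed in these comparisons, and 48%, 48.1% and 43.5% passed as higher. Nrgn, a calmodulin-binding neuronal protein gene, fell in all 3, from 14.2 ± 0.746 CPM (n = 3, SD) in NSC to 0.310 ± 0.316 in Neuron, 0.103 ± 0.0404 in Astrocyte (n = 3 each, SD) and 0.330 ± 0.0424 in Oligodendrocyte (n = 2, SD). Aldh1a1 rose by 4.51 on the log2 scale in Oligodendrocyte vs NSC.

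The amino acid exchanger Slc7a5 was at 153 ± 5.16 CPM (n = 3, SD) in NSC and 122 ± 0.240 CPM (n = 2, SD) in Oligodendrocyte, above the 56.3 ± 3.71 in Neuron and 50.6 ± 5.57 in Astrocyte (n = 3 each, SD). Slc16a10, another iodothyronine and aromatic amino acid carrier, was also higher in these groups than in the other two, with 2.62 ± 0.175 CPM (n = 3, SD) in NSC, 1.25 ± 0.120 (n = 2, SD) in Oligodendrocyte, 0.327 ± 0.0603 in Astrocyte and 0.297 ± 0.0666 in Neuron (n = 3 each, SD). Among retinoid X receptor partners, the retinoic acid receptor gene Rarb rose in all 3 media, by 2.66 in Oligodendrocyte, 2.22 in Astrocyte and 2.11 in Neuron on the log2 scale. Klf10 fell in all 3, from 99.0 ± 6.66 CPM (n = 3, SD) in NSC to between 7.33 and 14.63 CPM in the day 4 libraries.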
